A study of Zostera marina with 23 samples.

Results

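Eelgrass, Zostera marina, is a flowering plant that lives rooted in marine sediment and flowers under water. In 92 of its nuclear genes, of 22537 identifiers examined, transcripts were low in root and at least 4-fold higher in leaf, male flower and female flower alike. The genes were chosen on tissue medians of log2(value + 1). The widest gap between the 4 medians had to set root alone below the other tissues and to measure at least 2, the lowest median above it had to reach 6, and late and early female flower had to lie within 2 of each other. All 92 genes that met these conditions were kept, since an upper limit of 200 genes was not reached. Under the same conditions 477 genes were low in leaf alone, 258 in male flower alone and 113 in female flower alone.

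Roots of a seagrass anchor the shoot and take up nutrients in dark sediment that is often without oxygen. Leaves and flowers stand in lit water, and the leaf carries out most of the photosynthesis. A gene that is low in root and present in all organs of the shoot is therefore one that the shoot organs hold in common against the organ below the sediment surface. The values were paired with identifiers and with no gene names, so no function is given to any gene here, and neither the tissue labels nor the genes could be checked against marker genes. In RNA of whole organs, fewer cells of a type and less RNA per cell cannot be told apart.

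The study sequenced polyadenylated RNA of root (n = 4), leaf (n = 6), male flower (n = 7), female flower early in its development (n = 3) and female flower late in it (n = 2). All plants were field-collected shoots kept in aquaria, under a rise in water temperature from 5 to 15 °C and in daily light from 12 to 16 hours that was meant to bring on flowering. One further female library had a title that calls it early and a tissue label that calls it late. It counted as female flower when the genes were chosen, and as late in the condition on female stage. It entered no test. Whether the libraries of a tissue were made from different plants is not said in the labels, and the p-values then cover no more than the scatter among these samples, part of which may be technical. Libraries are numbered from 0, as in the titles.

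Depth was 5696797 to 13679078 fragments per library. Values are scaled fragments, meaning fragment counts multiplied by 1 factor per library, and FPKM where levels are compared between genes. Several libraries lay apart from their tissue in the correlation over all genes tested. Leaf 1 correlated with the other leaf libraries at a mean r of 0.762 and with the female flower at 0.852. Root 2 correlated with the other roots at 0.815 and with leaf at 0.791. Leaf 4 had a mean r of 0.850 with the other leaf libraries and male 5 one of 0.820 with the other male libraries. Early female 0 was counted with them at 0.951 with the other early ones, though early female 2 was close to it at 0.958. The calls and the count of genes with every root library below every other are given below with and without these libraries.

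The gap between root and the next tissue, which is the value the genes were chosen by, ranged from 2.01 to 5.97 on the log2 scale. Its median was 3.51, an 11.4-fold difference in value + 1, and it reached 4 in 29 genes and stayed under 3 in 34. The lower limit of 2 cut through a continuous range: the narrowest gap inside was 2.01, the widest outside was 2.00, and 258 genes met the level with a gap under 2. The lowest level above the gap was 6.06 inside, against 5.92 for the nearest of 34 genes that had the gap but not the level. The condition on female stage removed no gene.

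**Figure D1:**
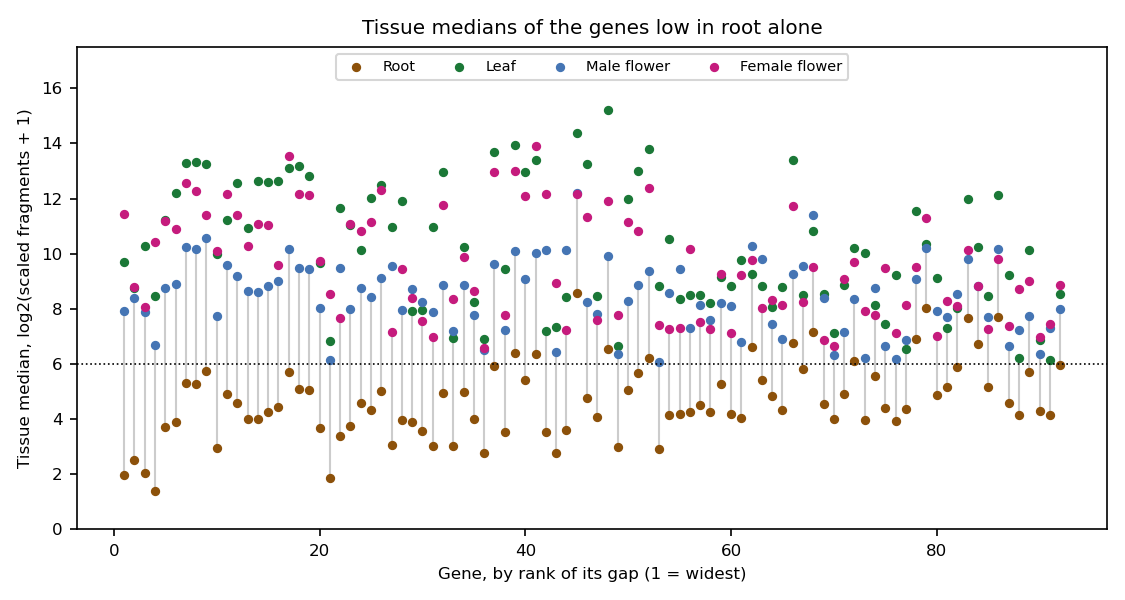
Median log2(scaled fragments + 1) of each of the 92 genes in root, leaf, male flower and female flower, with genes ordered by the width of the gap (1 is the widest). Grey lines join the root median to the lowest of the other 3 medians and the dotted line marks the level of 6 that those 3 had to reach. The other tissues spread widely above root, and male flower is the lowest of them in 63 genes.

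Low in root did not mean undetected. Over the 92 genes the median FPKM was 2.11 in root, 27.1 in male flower, 41.7 in female flower and 71.1 in leaf. Among all 17423 genes tested, the genes' median percentile by FPKM was 21.8 in root, 70.9 in male flower, 85.5 in female flower and 89.0 in leaf. The 4 root libraries together held 8 to 2261 fragments of each gene, with a median of 144.5, and a root library was at 0 in only 2 of the 92 genes. Root medians were under 4 on the log2 scale in 28 genes, and in 14 genes they were at least 6, the level asked of the other tissues.

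As a share of all fragments, the 92 genes together made up 0.0471% in root 0, 0.0486% in root 1, 0.0801% in root 2 and 0.0425% in root 3. In male flower the share was 0.224% to 0.468%, with a median of 0.308%. In female flower it was 1.92% to 2.25% in the 3 early libraries, 2.10% and 3.06% in the 2 late ones and 2.56% in the library of unclear stage. In leaf it ran from 1.89% to 10.5%, with a median of 3.98%. The shares of root and of male flower did not overlap those of any other tissue, while leaf and female flower overlapped at the lower end of leaf. The low share of root follows from the choice of genes and is no test. The sums rest on few genes: the 10 most abundant in a tissue held 44.8% of the 92 genes' fragments in root. They held 47.9% in leaf, 37.2% in male flower and 46.5% in female flower.

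The gene with the widest gap was Zosma19g01250. Its root values were 3.33, 4.48, 1.71 and 2.44 scaled fragments in root 0 to 3, which rest on 5, 6, 2 and 3 fragments. In leaf it ranged from 401 to 2194 with a median of 832, and in male flower from 18.1 to 322 with a median of 242. The early female libraries had 2264, 2372 and 2780, the late ones 2958 and 2725, and the library of unclear stage 3006. Every root library lay below every other library, and male 0, 1 and 6 were low among the male flowers, at 29.6, 18.1 and 59.6.

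The second widest gap was in Zosma37g00150, whose root values were 11.3, 11.2, 0 and 1.63, from 17, 15, 0 and 2 fragments. It was nearly level across the shoot organs, with medians of 437 in leaf (173 to 1614) and 332 in male flower (54.2 to 1090). The early female libraries held 583, 428 and 733, the late ones 462 and 206, and the one of unclear stage 258. Its root libraries also lay below all others.

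Every root library lay below every other library in 53 of the 92 genes, where 1.60% of all genes tested showed this order. The choice of genes used the same root values, so the count describes how cleanly they separate and is no test. In the other 39 genes the highest root value reached at least 1 library of another tissue, most often male 0 and male 1 (14 genes each) and male 5 (10 genes). Early female 0 was reached in 0 genes and any other female library in 1 to 3. Without root 2 the count of separated genes was 61, and without all the libraries that lie apart it was 66. Over the same genes, leaving a library out can keep or raise this count but cannot lower it. No share of all genes was taken for either.

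The choice was then repeated with each root library left out, and the left-out library was read at the genes found without it. Without root 0, 105 genes were chosen, and root 0 lay at least 2 below the lowest other tissue median in 64 of them (61.0%). The counts were 66 of 95 for root 1 (69.5%), 63 of 107 for root 2 (58.9%) and 72 of 99 for root 3 (72.7%). The left-out library was below the lowest other tissue, by any amount, in 101, 92, 99 and 99 of the genes in the same order. Its median gap was 2.83, 3.25, 2.51 and 3.53. The left-out root library thus lay below the lowest other tissue median in nearly all genes chosen, but in many of them by less than 2. The remaining roots and the other tissues did choose these genes, and no share over all genes was taken, so the counts are a description and no test.

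**Figure D2:**
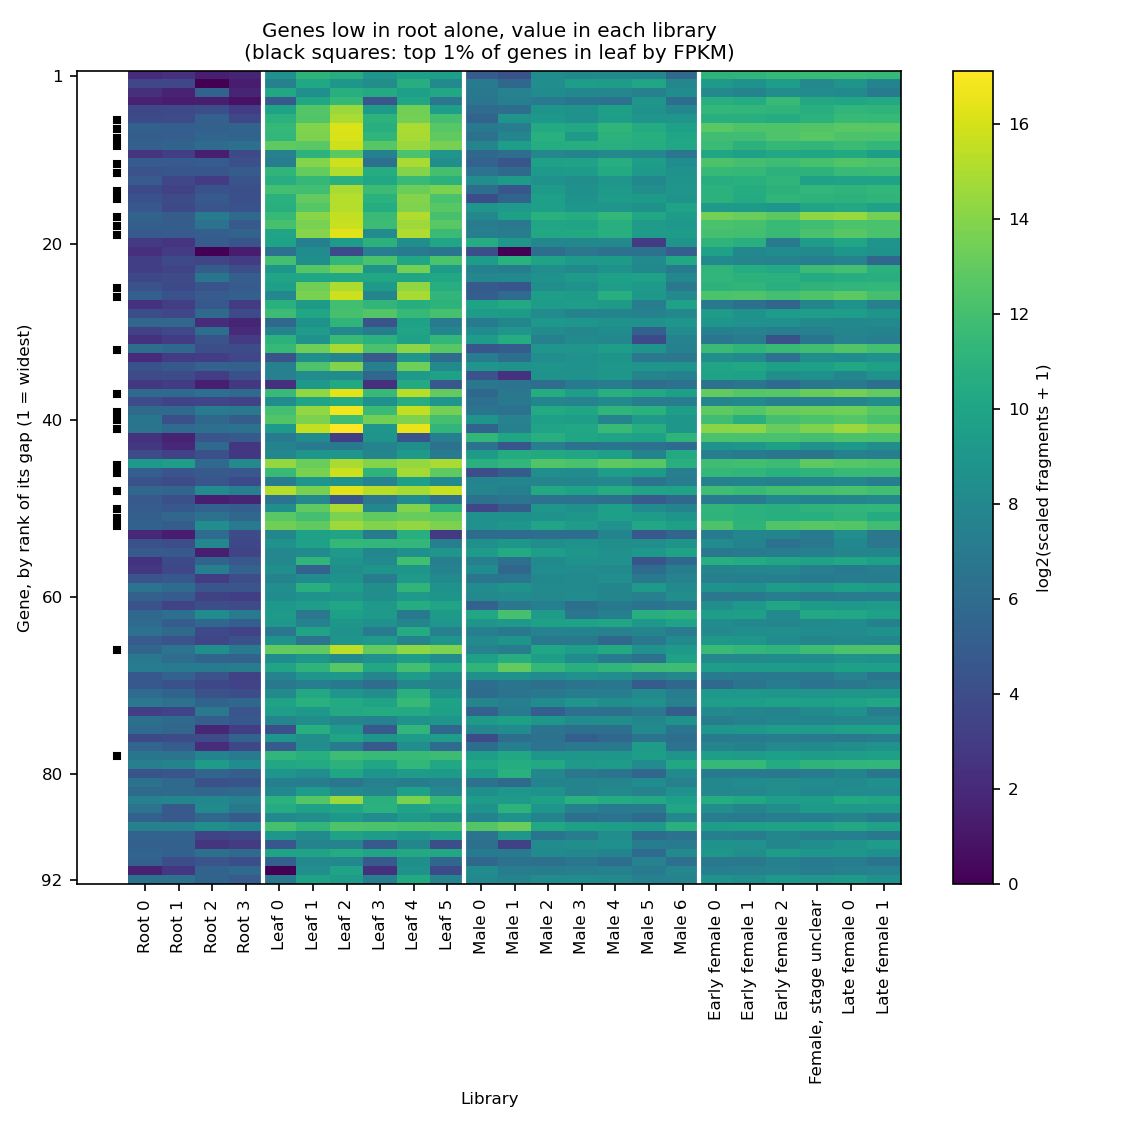
Log2(scaled fragments + 1) of the 92 genes (rows, widest gap at the top) in each of the 23 libraries (columns), with white lines between tissues and black squares beside the 26 genes in the top 1% of leaf by FPKM. The root columns are dark throughout, the female columns are even, and the leaf and male columns differ from library to library, with leaf 2 and leaf 4 brightest and male 0 and male 1 darkest in the abundant genes.

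Root 2 was the highest of the 4 roots in 40 of the 92 genes, against 33.9% of all genes tested. Among the 148 genes outside the 92 that ranked in the top 1% of leaf by FPKM, it was highest in 66.9%, so this order is not particular to the 92. The median of its difference from the other roots was 0.34 on the log2 scale over the 92 genes and −0.10 over all genes tested. The upper quartile of that difference was 1.45 over the 92 genes and 0.56 over all genes tested. In Zosma23g00670 root 2 held 246 scaled fragments while root 0, 1 and 3 held 18.0, 15.7 and 12.2. The value of root 2 lay within the range of this gene in leaf (161 to 2734) and female flower (81.2 to 303), and below male flower (343 to 538). In Zosma44g01090 root 2 held 63.2 beside 2.66, 1.49 and 14.7 in the other roots, while the male flowers held 23.8 to 207. Leaf 5 held 6.34 in this gene, below root 2 and root 3. Root 2 was also the root closest to leaf over all genes, and what part this had in its values for the 92 genes was not tested.

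The 92 genes did not sit at one level in the shoot. Leaf was the highest tissue in 54 of them, female flower in 28 and male flower in 10, while male flower was the lowest of the 3 in 63, female flower in 20 and leaf in 9. The combination of leaf highest and male flower lowest accounted for 41 genes. The 3 medians lay within 1 of each other on the log2 scale in 15 genes, and 10 genes spread over at least 4. The gap bounds how far the 3 tissues can lie apart but not their order, so the tests among them are read for direction and size, and their share against all genes is given without being read.

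Male flower was lower than leaf in 51 of the 92 genes and higher in 2, by limma with Benjamini-Hochberg adjustment over all 17423 genes tested and a change of at least 2-fold. Of all genes tested 24.5% were called lower in male flower and 31.7% higher, 56.1% in all. The count of 2 higher was 5 without leaf 2, 4 without leaf 5 and 8 with library weights estimated by limma. The median difference of male flower minus leaf was −1.81 over the 92 genes, with a median standard error of 0.58, and 0.19 over all genes tested. Zosma99g00830 held 2237 to 58342 scaled fragments in leaf, with a median of 10168, and 16.5 to 717 in male flower, with a median of 306. It was lower in male flower by a limma difference of −5.86 ± 0.83 (SE, adjusted p = 3.48e-06), and no leaf library overlapped a male one. In root it stood at 33.3, 21.6, 28.2 and 23.6, all above male 0 (16.5), and root 0 also lay above male 1 (31.6).

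Zosma330g00140 was the gene with the highest FPKM in leaf among the 92, at a median of 4632, against 121 in male flower and 13.6 in root. In scaled fragments it held 12541 to 80152 in leaf (median 38024), 167 to 1533 in male flower (median 966), and 48.6, 47.0, 305 and 169 in root 0 to 3. The early female libraries held 3695, 3052 and 3850, the late ones 4626 and 3905. Its difference of male flower minus leaf was −5.74 ± 0.55 (SE, adjusted p = 1.96e-08), and leaf was above female flower by 3.23 ± 0.61 (SE, adjusted p = 2.61e-04). Root 2 lay above male 0 and male 1, at 222 and 167, and root 3 above male 1, and no root library reached any other library.

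In Zosma7g01530 the order of leaf and flowers was turned round. It held 4608 to 4669 scaled fragments in early female flower, 5109 and 4740 in late, 879 to 2526 in male flower (median 1134) and 7.92 to 455 in leaf (median 145). Root stood at 4.66, 2.24, 22.2 and 27.7, so that leaf 2 (7.92) and leaf 4 (20.7) were as low as root. Male flower was above leaf by 3.94 ± 0.74 (SE, adjusted p = 9.35e-05) and leaf was below female flower by −5.72 ± 0.81 (SE, adjusted p = 2.07e-05). It was the one gene higher in male flower than in leaf whose libraries did not overlap.

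Male flower was lower than female flower in 42 genes and higher in 8, where 26.2% and 26.0% of all genes tested were called in those directions, 52.2% in all. The median difference of male minus female flower was −1.43 over the 92 genes (median standard error 0.61) and −0.03 over all genes tested. Zosma151g00070 was lower in male flower by −4.75 ± 1.30 (SE, adjusted p = 0.00389). It held 16756, 17916 and 9142 scaled fragments in early female flower, 23586 and 14094 in late, and 44.5 to 3065 in male flower with a median of 1030. Zosma19g01250, the gene with the widest gap, was lower in male flower by −4.59 ± 0.64 (SE, adjusted p = 5.14e-06).

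The opposite direction was clear in Zosma74g00400, which held 213 to 1468 scaled fragments in male flower (median 1121) against 157, 140 and 103 in early and 182 and 162 in late female flower. Male flower was higher by 2.49 ± 0.45 (SE, adjusted p = 9.21e-05), and all 7 male libraries lay above all female ones. Its root values were 14.0, 8.96, 17.1 and 5.70, below every other library. Zosma161g00340 was also higher in male than in female flower, by 2.34 ± 0.57 (SE, adjusted p = 0.00152). With all libraries scaled to equal totals that difference was 1.14 (adjusted p = 0.0520). On equal totals 1 gene was called higher and 70 lower in male than in female flower, with the median of all genes at −1.17. Against leaf the same scaling gave 1 higher and 66 lower, with the median of all genes at −0.39.

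Leaf was higher than female flower in 28 genes and lower in 5, where 19.1% and 26.8% of all genes tested were called, 45.9% in all. The median difference of leaf minus female flower was 0.58 over the 92 genes (median standard error 0.63) and −0.10 over all genes tested. Zosma161g00340 held 372 to 4937 scaled fragments in leaf (median 3276) and 48.6 to 289 in female flower, a difference of 3.81 ± 0.59 (SE, adjusted p = 4.53e-05). Zosma91g00340 held 423 to 2891 in leaf (median 1988) and 18.2 to 195 in female flower, a difference of 3.77 ± 0.87 (SE, adjusted p = 0.00128). In both genes leaf 1 was the lowest leaf library, and it still lay above every female library.

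Fewer genes lay lower in leaf, and Zosma52g01070 was a narrow case at −1.06 ± 0.42 (SE, adjusted p = 0.0421). Its leaf values were 104 to 176 scaled fragments and its female values 247 to 375, without overlap, but its call was lost when any 1 of the leaf libraries was left out. The count of 5 genes lower in leaf moved with single libraries. It was 1 without leaf 5, 2 without early female 2, late female 0 or late female 1, and 3 without leaf 0 or leaf 3. Without both leaf 1 and leaf 4, which lie apart, it was 13, with 29 higher. On equal totals 19 genes were called higher and 10 lower in leaf, with the median of all genes at −0.57. With estimated library weights, 26 were called higher and 27 lower.

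**Figure D3:**
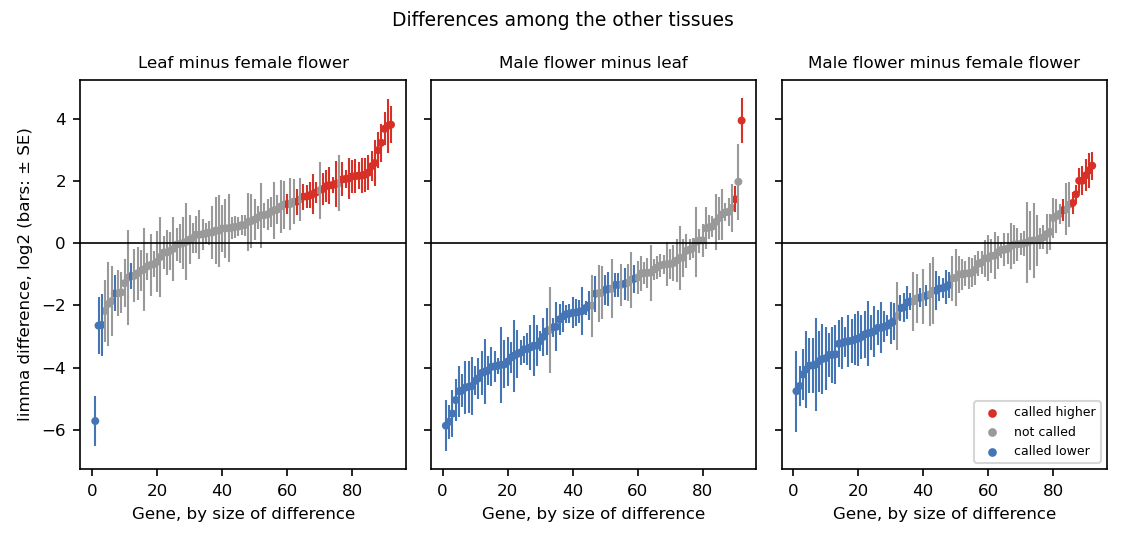
Limma differences on the log2 scale with their standard errors for leaf minus female flower, male flower minus leaf and male flower minus female flower, each panel with the 92 genes ordered by size of difference. Red points are called higher, blue points called lower and grey points not called. Calls lie mostly below 0 in both panels with male flower (51 of 53 and 42 of 50) and mostly above 0 for leaf minus female flower (28 of 33).

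Across the 3 comparisons, 36 of the 92 genes were lower in male flower than in both leaf and female flower, where 12.6% of all genes tested were. In 9 of the 92 leaf was above female flower and female flower above male flower, where 3.59% of all genes tested had both calls. No comparison gave a call in 23 of the 92, where 21.9% of all genes tested had none.

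**Figure D4:**
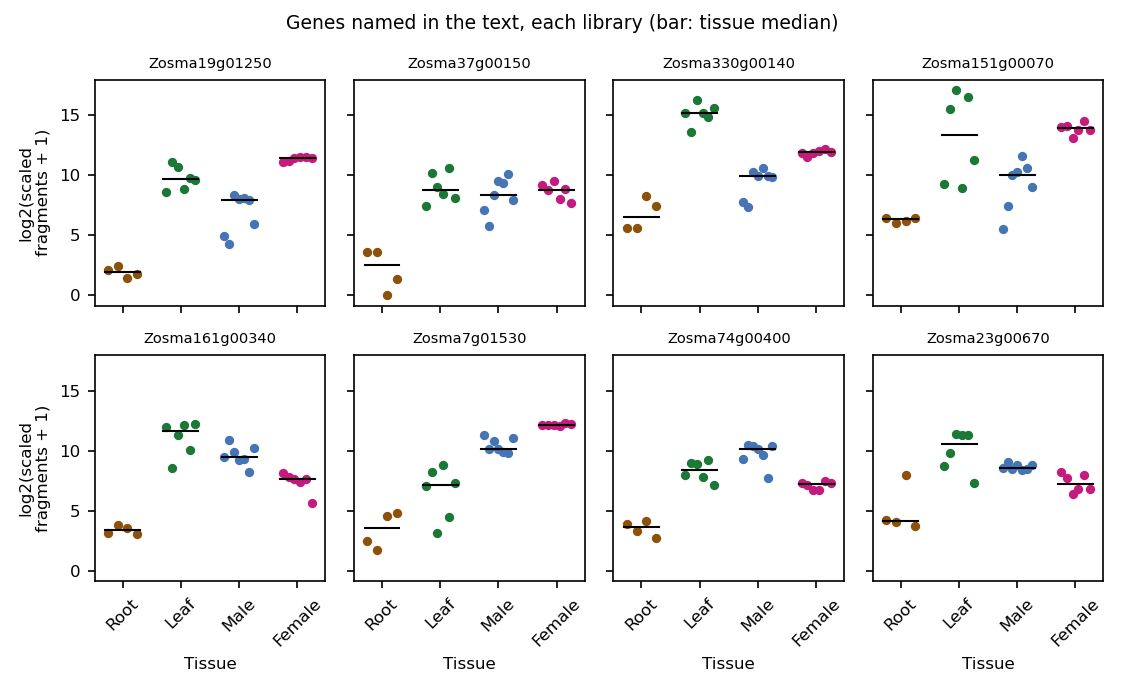
Log2(scaled fragments + 1) in each library for 8 of the genes described, with points grouped by tissue and a bar at the tissue median. Root is lowest in each panel by its median. Single leaf or male libraries fall to the level of root in Zosma151g00070, Zosma7g01530 and Zosma330g00140. Root 2 stands alone above the other roots in Zosma23g00670, within the range of leaf and female flower.

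A group of very abundant genes held more fragments than the rest of the 92 in every leaf and female library, but fewer in the 4 roots and in male 0, 1 and 6. In leaf, 26 of the 92 genes ranked in the top 1% of genes tested by FPKM, which is 174 genes at or above 418 FPKM. This grouping was made after the values were seen and serves as a description. In female flower 17 of the 92 were in the top 1%, 16 of them shared with leaf, and in male flower and root there were 0. The median FPKM of the 26 genes was 966 in leaf, 362 in female flower, 73.8 in male flower and 4.32 in root. The other 66 genes had medians of 38.6 in leaf, 24.6 in female flower, 17.8 in male flower and 1.28 in root.

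The 26 abundant genes moved from library to library in leaf and male flower and were even in female flower. The median range over the libraries of a tissue, on the log2 scale, was 4.20 in leaf, 4.41 in male flower, 0.72 in female flower and 1.03 in root. For the other 66 genes it was 2.69, 2.12, 0.99 and 1.96, and for all genes tested 2.03, 2.11, 0.94 and 1.20. The genes' median level in leaf 0 to 5 was 11.46, 13.50, 15.46, 11.52, 14.42 and 12.66, so leaf 2 held the most and leaf 0 and leaf 3 the least. In male 0 to 6 it was 6.57, 7.21, 9.90, 9.48, 10.51, 9.46 and 9.05, so male 0 and male 1 were lowest and male 4 highest. Root stayed at 5.03 to 5.68 and female flower at 11.36 to 12.31.

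**Figure D5:**
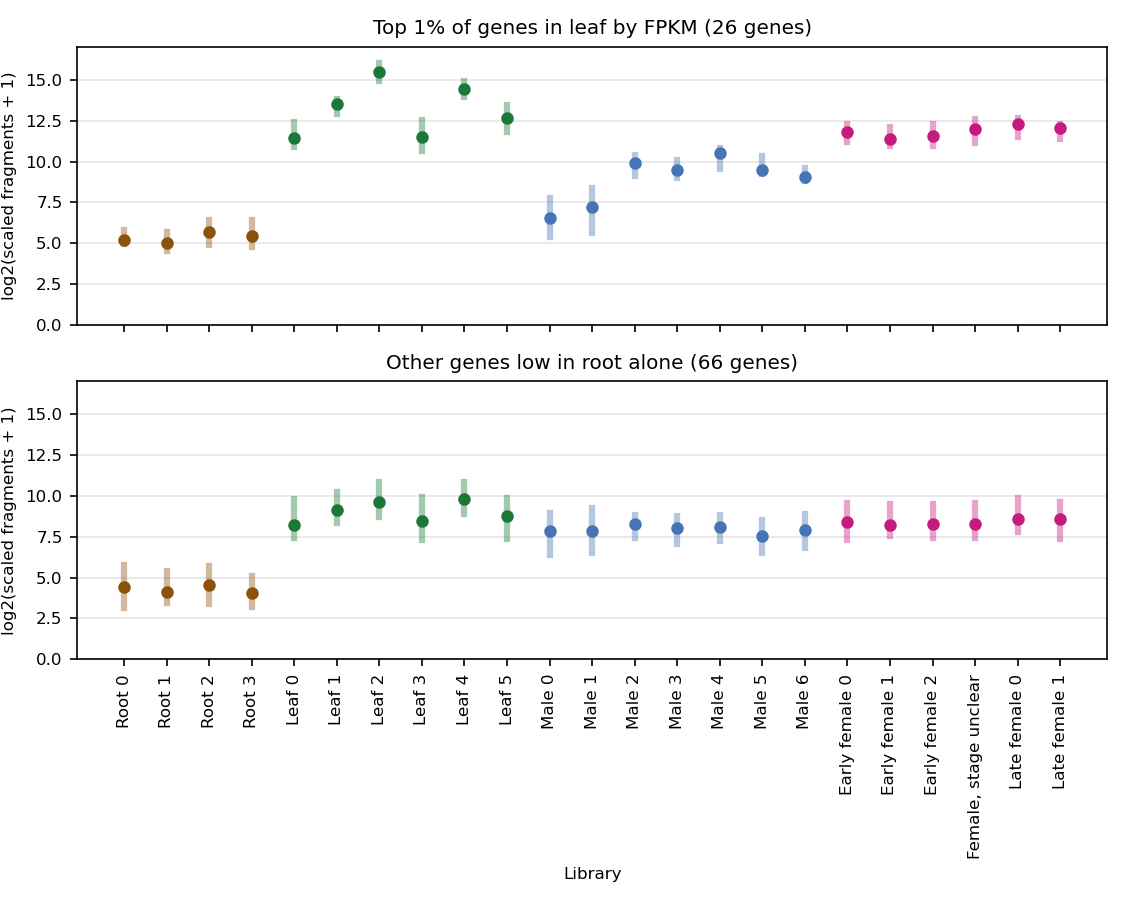
Median log2(scaled fragments + 1) in each library (points) with bars from the lower to the upper quartile of the genes for the 26 genes in the top 1% of leaf by FPKM (upper panel) and the other 66 genes (lower panel). The abundant genes run from 11.46 to 15.46 in leaf and from 6.57 to 10.51 in male flower, whereas the others stay between 8.22 and 9.79 in leaf and between 7.56 and 8.26 in male flower.

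The order of the leaf libraries was shared by most of the abundant genes. Leaf 2 was the highest leaf library in 25 of the 26, against 18.0% of all genes tested and 42.6% of the other 148 genes in the top 1% of leaf. The full order of leaf 2 above 4, 1 and 5, with leaf 0 and 3 last, held in 17 of the 26, against 1.80% of all genes tested and 12.2% of the other abundant leaf genes. Among the other 66 genes it held in 7. Male 0 and male 1 were the lowest male libraries in 20 of the 26, against 13.0% of all genes tested and 21.6% of the other 148. Male 4 was the highest in 21 of the 26, against 7.63% and 14.9%. These orders are those of the 26 genes' own library medians, so counts above the shares of other genes are partly built in and are no test. The libraries are also shared by all genes, so these counts describe a pattern common to the genes and are not repeated observations of it. Leaf 1 and leaf 4, which held more of these genes than 3 of the other leaf libraries, were also the 2 leaf libraries with the lowest correlation to their own tissue, and the part this has in the order was not tested.

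Zosma151g00070, the gene with the second highest FPKM in leaf among the 92, followed this order. It held 622, 47749, 140804, 507, 94231 and 2479 scaled fragments in leaf 0 to 5, and 44.5, 172, 1030, 1220, 3065, 1606 and 524 in male 0 to 6. In root it held 88.5, 63.5, 73.5 and 87.1. Leaf 0, leaf 3 and leaf 5 fell below the lowest female library, at 9142, and male 0 fell below every root library.

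The 26 abundant genes were grouped by their level in leaf, so a high leaf value is built into the group and no difference from leaf is given for it. Between the flowers, male minus female flower had a median of −3.08 over the 26 and −0.64 over the other 66, as a description. Every root library lay below every other library in 14 of the 26 and in 39 of the other 66, the overlaps of the abundant genes being mostly with male libraries, the lowest other tissue in 25 of them.

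The female stages differed little in the 92 genes, which the choice of genes limited to a difference of 2. As in the choice of genes, the library of unclear stage counted as late in this difference, though its title calls it early. Late minus early female flower had a median of 0.19 on the log2 scale, with a range of −1.35 to 1.45, against a median of 0.05 over all genes tested. It was above 0 in 63 of the 92 genes (68.5%) and in 53.4% of all genes tested. Among the abundant genes it was above 0 in 23 of 26. Late female 0 was the highest of the 5 staged female libraries in 17 of the 26. That held in 18.8% of all genes tested and in 35.8% of the other 148 genes in the top 1% of leaf. Late female 0 was also the highest of these 5 in the 26 genes' own median, so that count is partly built in and is no test. The library of unclear stage lay inside the range of the other 5 female libraries in 76 of the 92 genes. The share over all genes was not taken, so that count is not read as a trait of the 92.

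Transcript length, read from the ratio of scaled fragments to FPKM, was on the median 0.890 times that of the median gene tested for the 92 genes. It was 0.755 times for the 26 abundant genes and 0.771 times for the other 148 genes in the top 1% of leaf. In 3 pairs the identifiers shared their first number and differed by 30 in the second. These were Zosma35g00140 and Zosma35g00170, Zosma40g00080 and Zosma40g00110, and Zosma7g01500 and Zosma7g01530. The members of the last pair did not have like levels: Zosma7g01500 had a median of 10.19 in leaf and 6.09 in root on the log2 scale, and Zosma7g01530 had 7.19 and 3.52. Genes that share reads with a near-identical copy could not be told from others, and the values of such genes are uncertain.

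The library factors set how many genes are chosen. With all libraries scaled to the same total, 55 genes met the rule, 49 of the 92 among them. Of the 43 lost, 41 had male flower as their lowest other tissue, and root was still the lowest tissue by median in all 92. On equal totals 471 genes were low in leaf alone, 1024 in male flower alone and 60 in female flower alone. With quantile normalization 122 genes were low in root alone, 219 in leaf, 330 in male flower and 157 in female flower, so the order of leaf and male flower by these counts depended on the scaling.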

How the data were processed

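Per the labels' protocols, messenger RNA of 23 eelgrass samples was isolated with oligo(dT) beads for libraries of paired reads. Tools listed in the submitters' processing notes, with no role or order, are Cuffdiff 2.2.1, Cuffnorm 2.2.1 and TopHat2 2.0.12. Build, annotation and strandedness were not given in the sources used here.

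The table the authors deposited under the name of counts holds a scaled signal: each value is the fragment count of a gene times a factor that is the same throughout a library. Between 93.9% and 99.5% of a library's values were whole multiples of its factor to within 0.01, which gave the depth and the fragments behind a value. Since the rest were not whole, no count-based test was run, although the design had allowed for one. FPKM, from the authors' other deposited table, served to compare levels between genes and as an alternative.

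Identifiers of the organelle prefixes were left out of the choice of genes. The 17423 genes that reached a value of 10 in 2 or more libraries were tested, among them all 92. Limma 3.58.1, run in R 4.3.3, was fitted to log2(value + 1) with a trended and robust eBayes step. The 5 groups stood in 1 model of 22 libraries, with female flower as the mean of its stages. Calls were made at an adjusted p under 0.05 (Benjamini-Hochberg) with a difference of 2-fold or more. Folds on this scale understate the change of low genes. Root against other tissues and late against early female flower were not tested, since they chose the genes.

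The genes, the rules and the groupings were chosen with earlier results of these data known. Named are the 2 genes with the widest gap, the 2 with the highest FPKM in leaf, the 2 with root 2 highest above the other roots and, for each comparison and direction, the 2 called genes with the largest change whose libraries do not overlap. The other identifiers given are the 3 pairs close in number, chosen after their values were seen. As alternatives, pseudocount, filter, scaling and table were changed, library weights were estimated, means replaced medians, the replicate number was a block, the library of unclear stage was placed in either stage, the compared groups were fitted alone and each library was left out. Python 3.11.15, numpy 2.4.6, pandas 2.3.3 and matplotlib 3.10.9 were used.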

Additional observations from a re-analysis of the deposited data

Results flagged for a closer look

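Dixon's test looked for a library far from the others in 42 groups of values, and chance alone flags about 1 in 20 such groups. In 2 of them root 2 lay far from the other roots. The 92 genes made up 0.0801% of fragments in root 2, against 0.0425% to 0.0486% in the other roots. Zosma23g00670 held 246 scaled fragments in root 2, against 12.2 to 18.0 in the others, and it is one of the genes chosen because root 2 was high. The root values had also entered the choice of the 92 genes, so both flags are a description.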

How the results depend on the processing

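The number of genes that meet the rule and the number found again were within 1.5 times their main values of 92 under every alternative but equal totals. Scaled to equal totals, 55 genes met the rule, 49 of the 92 were found again, and every root library lay below every other in 33 of the 92. With estimated library weights, 53 genes were called between leaf and female flower (26 higher and 27 lower), and limma warned that the weights had not converged. With 1 library left out, 79 to 107 genes met the rule and 78 to 92 of the 92 were found again. No root overlap was seen in 53 to 61, a count that leaving a library out cannot lower over the same genes. Calls with 1 library left out ranged from 26 to 36 for leaf against female flower, 51 to 57 for male flower against leaf and 46 to 52 for male against female flower. Shares of all genes were not set beside the calls or the counts of root overlap under these alternatives. Of the calls of named genes, those of Zosma52g01070 and, on equal totals, Zosma161g00340 (male against female flower) were lost under some alternatives, in 14 cases in all, and no named call changed direction.

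With the replicate block, 33 genes were called for leaf against female flower, 52 for male flower against leaf and 51 for male against female flower. Deviations of same-numbered libraries had a median correlation of 0.029 (−0.41 to 0.52 over 31 pairs). Libraries of different number had one of −0.004 (−0.49 to 0.57 over 154 pairs). Correlations this widely spread cannot settle whether same-numbered samples are paired. Leaving out the libraries that lie apart, or leaf 1 and leaf 4 alone, was chosen after seeing the data. Without the libraries that lie apart, 47 of the 53 calls of male flower against leaf were kept and 4 were new. For male against female flower 49 of 50 were kept and 5 were new, and for leaf against female flower 32 of 33 were kept and 9 were new. Depth limits the genes lowest in root, where 8 fragments over 4 libraries were the fewest.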
